A study of Homo sapiens with 4 samples.

Results

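Intergenic regions near coding genes are stretches between genes that the deposited annotation calls distal intergenic, that it assigns to a protein-coding gene, and whose summit lies within 100 kb of the assigned transcript but outside it. This rule uses position and annotation only. It held for 2219 of the 29302 regions of the series, assigned to 1745 genes. ChIP-seq was performed in T98G, an established human glioblastoma cell line, with 1 ChIP library and 1 input library from cells carrying an empty vector and 1 ChIP library and 1 input library from cells that overexpressed LGP2. The column for LGP2 also carries the name pCW, which the labels do not explain, and the treatment field names LGP2 overexpression for all 4 samples, the vector pair included, so the groups follow the name of each sample. In the study, the vector pair is given as ChIP-seq with an antibody against crotonylated lysine, and no source used here names the antibody used for the LGP2 cells. Only the 2 ChIP libraries have values, and with 1 library per group no test between the conditions was possible and no difference has a replicate check. Differences between the antibodies, the depths or the culture of the libraries and differences made by LGP2 cannot be told apart.

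Sequence between genes holds enhancers, silencers and insulators, which bind transcription factors and can act on a promoter over long distances, often by looping of the chromatin. Crotonylation of histone lysines is a mark of open and active chromatin and is found at promoters and enhancers. LGP2, encoded by DHX58, is a cytosolic RNA helicase that works with the viral RNA sensors RIG-I and MDA5. The nearest gene is only a label for such a region, since an enhancer need not act on its nearest gene.

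The annotation of a region as intergenic depends on the gene models used, and 7 members reached into a RefSeq promoter window, the stretch from 250 bases before a gene's start to 50 bases after it. In 6 of the 7 the called region covered the start base itself. The 4 with the most shared bases are shown because they place called regions that are labelled intergenic at the start of a RefSeq gene. The letters are the 250 bases before the start, 5′ to 3′ on the strand of the gene, from RefSeq (GRCh38.p14), and capitals mark the bases inside the called region.
NAV2 (chr11:19344986-19345235, plus strand): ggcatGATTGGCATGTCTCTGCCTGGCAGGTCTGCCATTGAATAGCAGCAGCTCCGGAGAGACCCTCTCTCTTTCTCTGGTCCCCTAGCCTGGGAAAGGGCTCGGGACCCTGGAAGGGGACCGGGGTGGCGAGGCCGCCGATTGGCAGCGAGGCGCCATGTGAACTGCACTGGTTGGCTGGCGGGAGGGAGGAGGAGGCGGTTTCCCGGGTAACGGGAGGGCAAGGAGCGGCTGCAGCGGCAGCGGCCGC
RTN4 (chr2:55137832-55138081, minus strand): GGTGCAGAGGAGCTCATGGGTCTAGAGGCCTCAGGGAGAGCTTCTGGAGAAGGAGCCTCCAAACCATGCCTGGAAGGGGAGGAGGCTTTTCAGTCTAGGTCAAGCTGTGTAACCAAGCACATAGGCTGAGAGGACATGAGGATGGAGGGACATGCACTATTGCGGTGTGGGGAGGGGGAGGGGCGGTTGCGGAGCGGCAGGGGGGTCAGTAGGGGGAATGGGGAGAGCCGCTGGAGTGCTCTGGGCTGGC
LOC107986001, in a region assigned to ACKR3 (chr2:236592920-236593169, plus strand): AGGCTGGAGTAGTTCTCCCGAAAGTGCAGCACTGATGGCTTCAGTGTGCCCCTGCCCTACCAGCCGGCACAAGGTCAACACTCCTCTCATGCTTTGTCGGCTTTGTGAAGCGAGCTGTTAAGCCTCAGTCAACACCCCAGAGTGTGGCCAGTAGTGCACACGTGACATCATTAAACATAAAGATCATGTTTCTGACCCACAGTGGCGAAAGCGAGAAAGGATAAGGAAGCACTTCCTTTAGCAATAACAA
LOC124904266, in a region assigned to CABLES1 (chr18:23105682-23105931, plus strand): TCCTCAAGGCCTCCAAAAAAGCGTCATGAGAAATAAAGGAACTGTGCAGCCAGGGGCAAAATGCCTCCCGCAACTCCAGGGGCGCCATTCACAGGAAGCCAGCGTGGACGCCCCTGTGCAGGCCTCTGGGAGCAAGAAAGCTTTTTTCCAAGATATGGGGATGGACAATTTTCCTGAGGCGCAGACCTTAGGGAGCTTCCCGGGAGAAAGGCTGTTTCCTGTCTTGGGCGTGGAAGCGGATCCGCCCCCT

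NAV2 encodes a neuron navigator protein and RTN4 encodes Nogo, an inhibitor of axon growth. The region at the NAV2 start held 5 reads with LGP2 and 4 with the vector, and that at the RTN4 start held 2 and 4 reads. ACKR3 is an atypical receptor that binds the chemokine CXCL12, and its region held 4 reads with LGP2 and 5 with the vector. CABLES1 is a cell cycle regulator that binds cyclin-dependent kinases, and its region held 0 reads with LGP2 and 4 with the vector. The region assigned to CABLES1 was called only with the vector and the other 3 only with LGP2, although at RTN4 and ACKR3 the larger count was that of the vector library. The 7 windows ran from 43.3% G and C, at LOC105372774, to 68.0%, at NAV2, and 4 of them lay below the median of 58.7% over 35116 RefSeq windows. Motifs were searched on both strands of the whole windows of 300 bases. The AP-1 site (TGANTCA) was in 0 of the 7 windows and in 7.71% of all windows. The TATA box (TATAAA) was also in 0 of the 7 windows and in 11.5% of all windows. The E-box (CANNTG) was in 5 of 7 and 68.7%, the GC box (GGGCGG) in 2 of 7 and 45.0%, and the CCAAT box in 2 of 7 and 34.6%. These matches describe letters and not sites in use.

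Of the 2219 members, 1252 had been called only in the LGP2 library, which is 56.4% with an exact 95% interval of 54.3 to 58.5. A further 963 were called only in the vector library (43.4%, interval 41.3 to 45.5). In both libraries 4 were called (0.18%, interval 0.0491 to 0.461), beside 0.27% of all regions. Among members called in 1 library, 56.5% (54.4 to 58.6) were LGP2 calls, against 54.9% (54.3 to 55.5) among all other regions of the series. The intervals overlap. Promoter regions of coding genes stood higher, at 61.2% (59.6 to 62.9), and introns of coding genes stood at 54.0% (52.7 to 55.2). Intergenic regions assigned to non-coding genes stood at 53.8% (52.7 to 55.0). The balance at members was thus below that at promoters, with intervals that do not meet, and its interval overlaps those of the other 2 kinds. Such intervals are Clopper-Pearson intervals and cover counting error only.

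The signal at each member rested on few reads. Reads are whole reads recovered from the deposited normalized densities in a window inferred to be 2 kb. Members called only with LGP2 held a median of 3 reads in the LGP2 library (2 to 11) and 1 in the vector library (0 to 8). Members called only with the vector held a median of 1 read with LGP2 (0 to 6) and 4 with the vector (2 to 12). Each set was therefore high in the library that had called it, which is the measure the call was made on. The commonest pair in the first set was 3 and 1 reads, at 136 members, and in the second set 1 and 3 reads, at 118 members. The vector library had 0 reads at 259 members of the first set (20.7%), and the LGP2 library had 0 reads at 300 members of the second (31.2%). In the other direction, 89 members called only with LGP2 had the lower normalized density in the LGP2 library, and 72 called only with the vector had the lower one in the vector library. Summed over all members, the LGP2 library held 5672 reads and the vector library 5777.

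**Figure D1:**
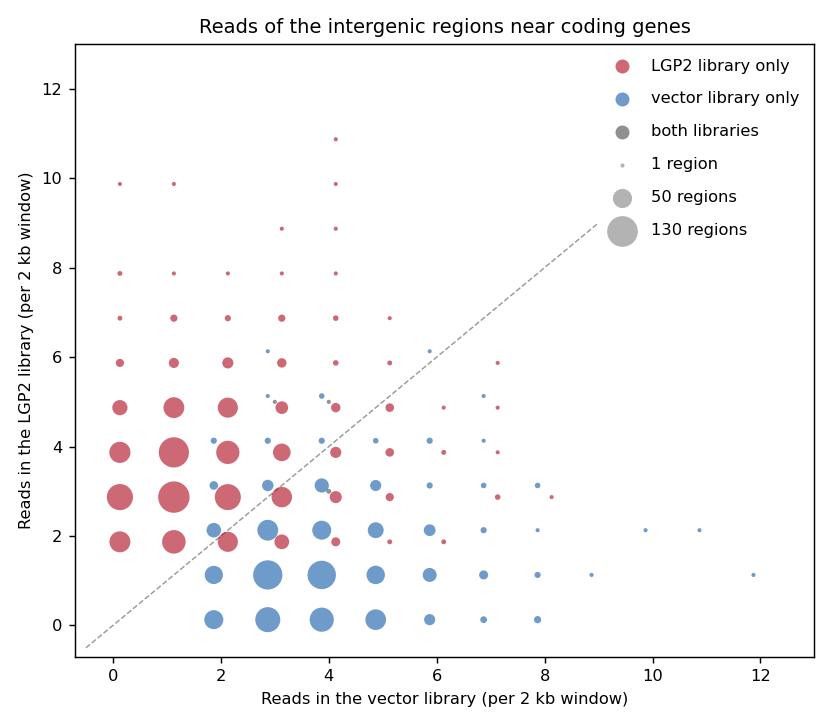
Reads per member in an inferred 2 kb window, vector library on the x axis and LGP2 library on the y axis, with the area of each circle growing with the number of members at that pair and the colour giving the library of the call. The dashed line marks equal reads, circles of the 2 sets are moved slightly apart, and the largest circles lie at 3 or 4 reads in the calling library and 1 in the other.

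The log2 ratio of the normalized densities, LGP2 over vector, had a median of 0.15 over the members, with quartiles of −0.87 and 1.13. Over all regions the median was also 0.15, with quartiles of −1.06 and 1.13. At least 2-fold higher with LGP2 were 689 members (31.1%, interval 29.1 to 33.0), beside 29.5% of all regions. At least 2-fold lower were 526 members (23.7%, interval 21.9 to 25.5), beside 25.2% of all regions. The higher share stood close to the background of the series, as did the lower one. Of the members past 2-fold, 56.7% were higher with LGP2. This split depended on the scaling: it was 46.0% with the median of all regions set to 0 and 69.3% when the libraries were scaled by the reads at regions called in the other library, which moved the median of all regions by 0.33. The direction of the split thus turned with the scaling.

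The largest ratios toward LGP2 were at members with 0 reads in the vector library. At CCR4, a receptor for the chemokines CCL17 and CCL22, a region of 295 bp (chr3:32959203-32959497) lay 3.0 kb downstream of the transcript, in the gap before GLB1, whose RefSeq interval began 1611 bp away and was thus nearer than that of CCR4, at 2854 bp. It held 10 reads with LGP2 (exact Poisson interval 4.8 to 18.4) and 0 with the vector (0 to 3.69), a log2 ratio of 3.60. The intervals of the 2 libraries did not overlap at this member. The other 3 members assigned to CCR4 were all called only with the vector. They held 1 and 7, 2 and 5, and 0 and 4 reads with LGP2 and the vector, at 24.9 and 12.7 kb upstream and 19.6 kb downstream. The last of these overlapped the RefSeq interval of GLB1. At each of these 3 members the intervals of the libraries overlapped.

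VPS37C, a subunit of the ESCRT-I sorting complex, and MTX2, a component of the mitochondrial outer membrane import machinery, each had a member with 8 reads with LGP2 and 0 with the vector (log2 ratio 3.30). The MTX2 region lay 13.1 kb upstream of its gene and 65168 bp from HOXD1, a homeobox gene on the other side. Members of TMEM255B and of CFAP410, which encodes a protein of cilia, held 7 and 0 reads (3.13). There were 8 members with 6 and 0 reads (2.93), among them those of DMAP1, a subunit of the NuA4 histone acetyltransferase complex, ZNF430, a zinc finger protein, B3GNT2, an enzyme of polylactosamine synthesis, EPHA4, a receptor for ephrins, and OTOR, a secreted protein of the inner ear. At these counts the Poisson intervals of the libraries overlap. For 6 reads the interval ran from 2.2 to 13.1, and for 8 reads from 3.45 to 15.8.

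The largest ratios toward the vector were at 6 members with 0 reads with LGP2 and 8 with the vector (log2 ratio −3.04). One was at CXCL1, a chemokine that attracts neutrophils through CXCR2 (chr4:73885959-73886433), 14.9 kb downstream of the transcript, with PF4 as the next coding gene, 94378 bp away. The others were assigned to MATN1, a cartilage matrix protein, DYNC1I2, a dynein subunit, SLC12A7, a potassium chloride cotransporter, TWISTNB, a subunit of RNA polymerase I that RefSeq names POLR1F, and EXT1, an enzyme of heparan sulfate synthesis. The region of SLC12A7 overlapped the RefSeq interval of that gene, and the region of EXT1 overlapped that of SAMD12. The next 5 members held 0 and 7 reads (−2.87), among them those of POP4, a subunit of RNase P, CNTN6, a neural adhesion molecule, IQGAP2, a scaffold protein, and COX7C, a subunit of cytochrome c oxidase. The interval of 8 reads reaches down to 3.45 and that of 0 reads up to 3.69, so these too overlap.

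Over all members, the intervals of the libraries stayed apart at 2 of 2219, the one at CCR4 and one at SEM1, and over all regions at 16 of 29302. SEM1 encodes a small subunit of the proteasome. Its member held 1 read with LGP2 (0.0253 to 5.57) and 12 with the vector (6.2 to 21.0), 14.9 kb downstream of the transcript, a log2 ratio of −2.53. DHX58 itself had no member.

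**Figure D2:**
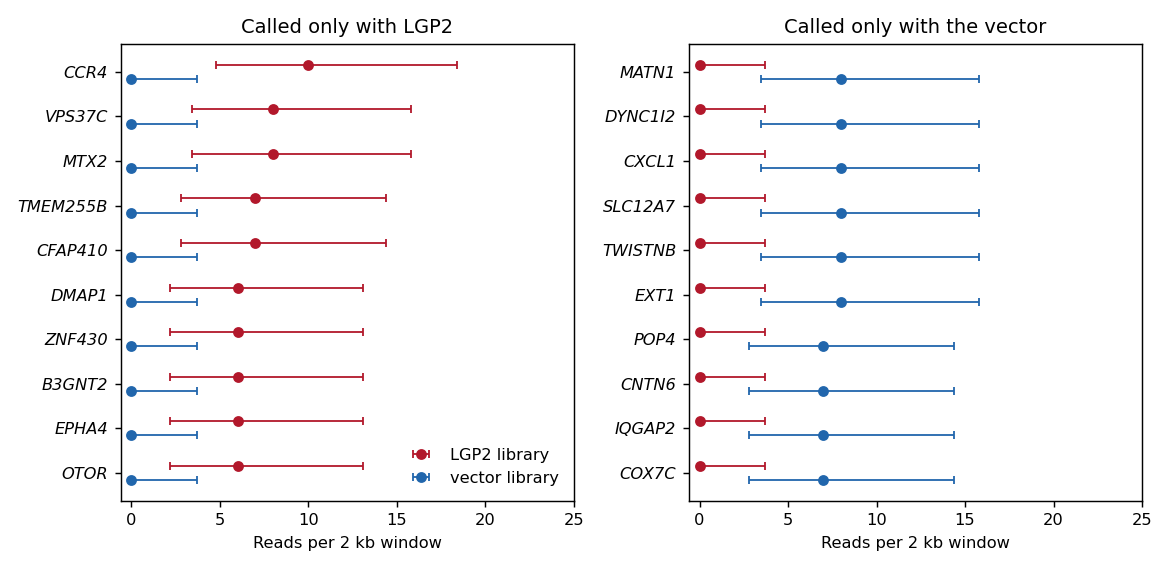
Reads per inferred 2 kb window at the 10 members of largest log2 ratio toward each library, LGP2 library in red and vector library in blue. Bars are exact 95% Poisson intervals, which cover counting error only, and they stay apart only at CCR4.

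The 4 members called in both libraries had near-equal reads. They were at SCAPER with 5 and 4 reads (LGP2, then vector), at CREB5, a transcription factor of the CREB family, with 5 and 3, at GSG1L, an auxiliary subunit of AMPA receptors, with 3 and 4, and at DIPK2A with 3 and 4. Their log2 ratios ran from −0.16 to 0.75. The GSG1L region stood in a stretch of chromosome 16 with neighbours on both sides. A vector call of GSG1L with 2 and 5 reads ended 834 bp from it. The 2 GSG1L summits lay 1347 bp apart, so their inferred windows overlapped and may share reads. A call assigned to XPO6, an exporter of actin from the nucleus, came 3509 bp further on with 5 and 7 reads. The XPO6 region was called only with LGP2 although the vector library held more reads there (log2 ratio −0.23).

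The 10 members with the most reads included both kinds of call. PARD6G, a cell polarity protein, had 11 and 4 reads (LGP2, then vector; log2 ratio 1.46), BPIFA2, a salivary secretory protein, had 10 and 4 (1.33), and MUC2, the main mucin of the gut, had 9 and 4 (1.19). On the vector side, CASD1, an enzyme that acetylates sialic acids, had 2 and 11 reads (−1.82) and TJP1, the tight junction protein ZO-1, had 2 and 10 (−1.70). ZBP1, a sensor of Z-form nucleic acids, had 5 and 7 reads (−0.23) at 3.37 kb upstream of its transcript. All 10 had at least 1 read in each library. Only 61 members (2.75%) reached 10 reads in both libraries together.

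By distance, 726 members (32.7%) lay within 10 kb of the transcript, 738 (33.3%) at 10 to 25 kb, 446 (20.1%) at 25 to 50 kb and 309 (13.9%) at 50 to 100 kb. The median distance was 16.5 kb, with 16.3 kb for members called only with LGP2 and 16.9 kb for those called only with the vector. The share of LGP2 calls was 57.0%, 57.3% and 58.3% in the first 3 bins and 51.0% (45.2 to 56.7) in the farthest. The last interval includes the overall 56.5%. Upstream of the transcript lay 1464 members (66.0%, interval 64.0 to 67.9), with 65.7% in the LGP2 set and 66.3% in the vector set. The annotation assigns a region by the nearest transcript start, and regions within 3 kb of a start carry the promoter label, so upstream members began at 3172 bp while downstream ones began at 159 bp.

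**Figure D3:**
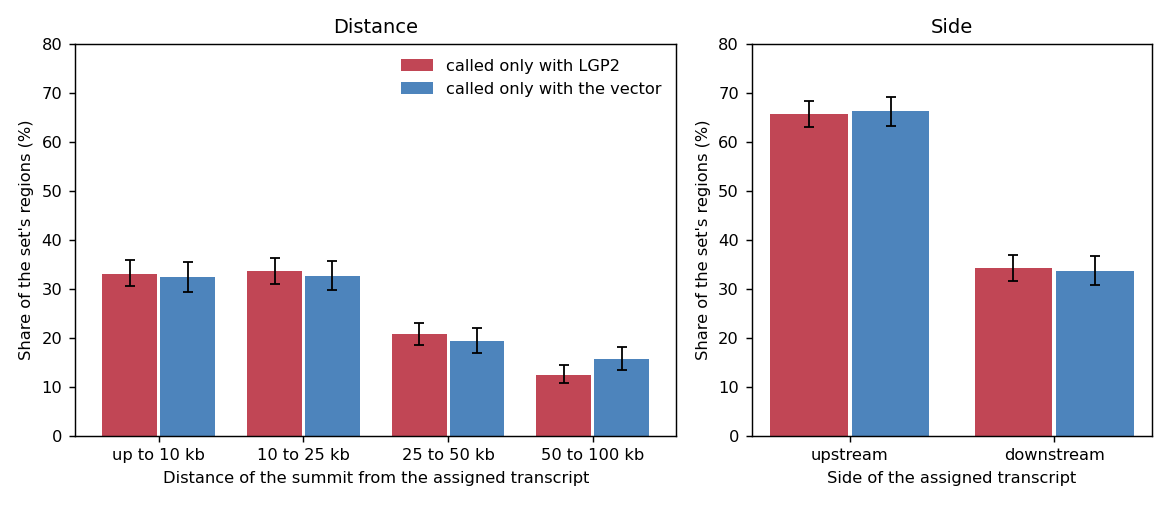
Members by distance of the summit from the assigned transcript in kb (left) and by side of the transcript (right), as percent of each set of calls, with exact 95% binomial intervals. The LGP2 and vector sets follow the same course, with 12.5% and 15.7% of their members at 50 to 100 kb.

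The 4 members nearest to a transcript all lay downstream. ECRG4, which encodes a secreted peptide precursor, had a member 159 bp past its end with 4 reads with LGP2 and 0 with the vector. OBP2A, an odorant binding protein, had one at 201 bp with 2 and 3 reads. GFI1B, a transcription factor of blood cell formation, had one at 364 bp with 2 and 2 reads, overlapping the RefSeq interval of GFI1B. C7orf57 had one at 387 bp with 3 and 7 reads. At the other end of the rule, MDFIC with 4 and 1 reads and ANKRD50 with 2 and 3 reads lay 99.0 kb away, just inside the limit. SLC5A12 with 3 and 1 reads and ADAMTS20 with 4 and 1 reads lay 101 kb away, just outside.

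Set against RefSeq, 292 members (13.2%) overlapped a RefSeq gene of any kind, in full or in part. A long non-coding RNA gene was overlapped by 187 (8.43%) and a coding gene by 110 (4.96%). The share overlapping any gene was 13.5% for LGP2 calls and 12.8% for vector calls. Of the 2202 members whose symbol matched a RefSeq coding gene, 1971 (89.5%) were assigned to the nearest one. For members outside all RefSeq coding genes, the gap between the 2 flanking coding genes had a median of 105 kb (quartiles 44.9 and 260 kb). It was 98.1 kb around LGP2 calls and 111 kb around vector calls. An LGP2 call had a vector call within 1000 bp in 12 cases (0.958%, against 1.09% of the LGP2 calls among other regions), and a vector call had an LGP2 call as near in 13 cases (1.35%, against 1.32%). Calls of the 2 libraries thus rarely stood side by side near coding genes, at shares within counting error of those elsewhere.

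On chromosome 20, 56 members were called only with LGP2 and 15 only with the vector, which is 78.9% LGP2 calls (67.6 to 87.7). The other regions of chromosome 20 stood at 76.7% (73.4 to 79.8), so the imbalance was that of the whole chromosome in these libraries. On chromosome 7, members had 100 LGP2 and 53 vector calls, 65.4% (57.3 to 72.9), against 54.9% (52.4 to 57.5) in its other regions. These intervals overlap, and chromosome 7 was 1 of 24 chromosomes compared. Part of the count on chromosome 7 came from NPTX2 and SHH, and without their members the share was 63.2% (54.8 to 71.1). The intervals of chromosome 4, at 46.4% (37.0 to 56.1), and of the X chromosome, at 41.4% (30.9 to 52.4), lay below the overall 56.5%. The other regions of these chromosomes stood close to them, at 45.3% and 39.9%, so here too the share was that of the whole chromosome. Without chromosome 20, 55.8% of the members called in 1 library were LGP2 calls.

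**Figure D4:**
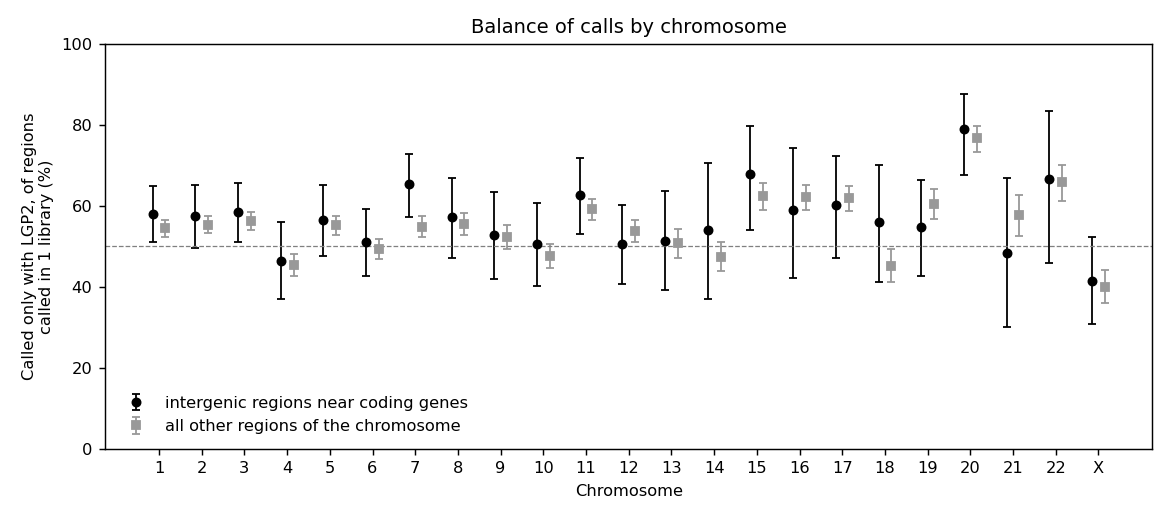
Share of LGP2 calls among regions called in 1 library, in percent per chromosome, for members and for the other regions of the same chromosome, with exact 95% binomial intervals and a dashed line at equal calls. Chromosome 20 stands highest for both, at 78.9% of members and 76.7% of other regions.

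Most genes had 1 member (1376 of 1745), and 369 genes had 2 or more, with 843 members between them. At 120 of the 369 (32.5%) all members were LGP2 calls, at 64 (17.3%) all were vector calls, and at 185 (50.1%) the members included calls of both libraries. Of the 22 genes with 4 or more members, 20 had calls of both libraries. The other 2 were NPTX2 and SHH, at which all members were LGP2 calls. Over all regions, 54.9% were called only with LGP2 and 44.9% only with the vector. Whether genes with calls of 1 library exceeded the number these shares give was not tested.

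NPTX2 encodes a neuronal pentraxin that gathers AMPA receptors at synapses. Its 5 members, from 67.8 kb upstream to 61.0 kb downstream, held 7 and 4, 6 and 0, 4 and 3, 5 and 2, and 3 and 2 reads with LGP2 and the vector. In all 5 the LGP2 library was higher, with 25 reads against 11 in sum. SHH, the sonic hedgehog morphogen, had 4 members at 7.75 to 37.9 kb upstream, with 4 and 1, 3 and 3, 5 and 3, and 5 and 1 reads. Of these, 3 had more LGP2 reads and the other had equal reads, and the sums were 17 and 8. ZNF536, a zinc finger repressor of neuronal differentiation, had 4 upstream members and sums of 19 and 10 reads.

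The vector library was higher in sum at TCF7L2, PTHLH, NPS and KBTBD8. TCF7L2, the transcription factor that acts downstream of Wnt signals, had 5 members, all downstream, with 9 LGP2 and 17 vector reads. PTHLH, the parathyroid hormone related hormone, had 5 upstream members with 7 and 17 reads. NPS, the precursor of neuropeptide S, had the most members of any gene, 6, with 3 calls of each library and 10 and 18 reads. KBTBD8, an adaptor of a ubiquitin ligase, had 5 downstream members with 9 and 14 reads. The 4 members of C12orf75 lay in 2 close pairs whose summits were 1017 and 912 bp apart, so that their inferred windows overlapped and may share reads. Its members held 3 and 5 reads at each of the first 2, then 5 and 3, then 6 and 3, and the last was a vector call. The sums at C12orf75 were 17 LGP2 and 16 vector reads. At TCF7L2 and KBTBD8 too, 2 of the summits lay less than 2 kb apart. Sums at these 3 genes may thus count some reads more than once. Such overlapping windows touched 98 members (4.42%).

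**Figure D5:**
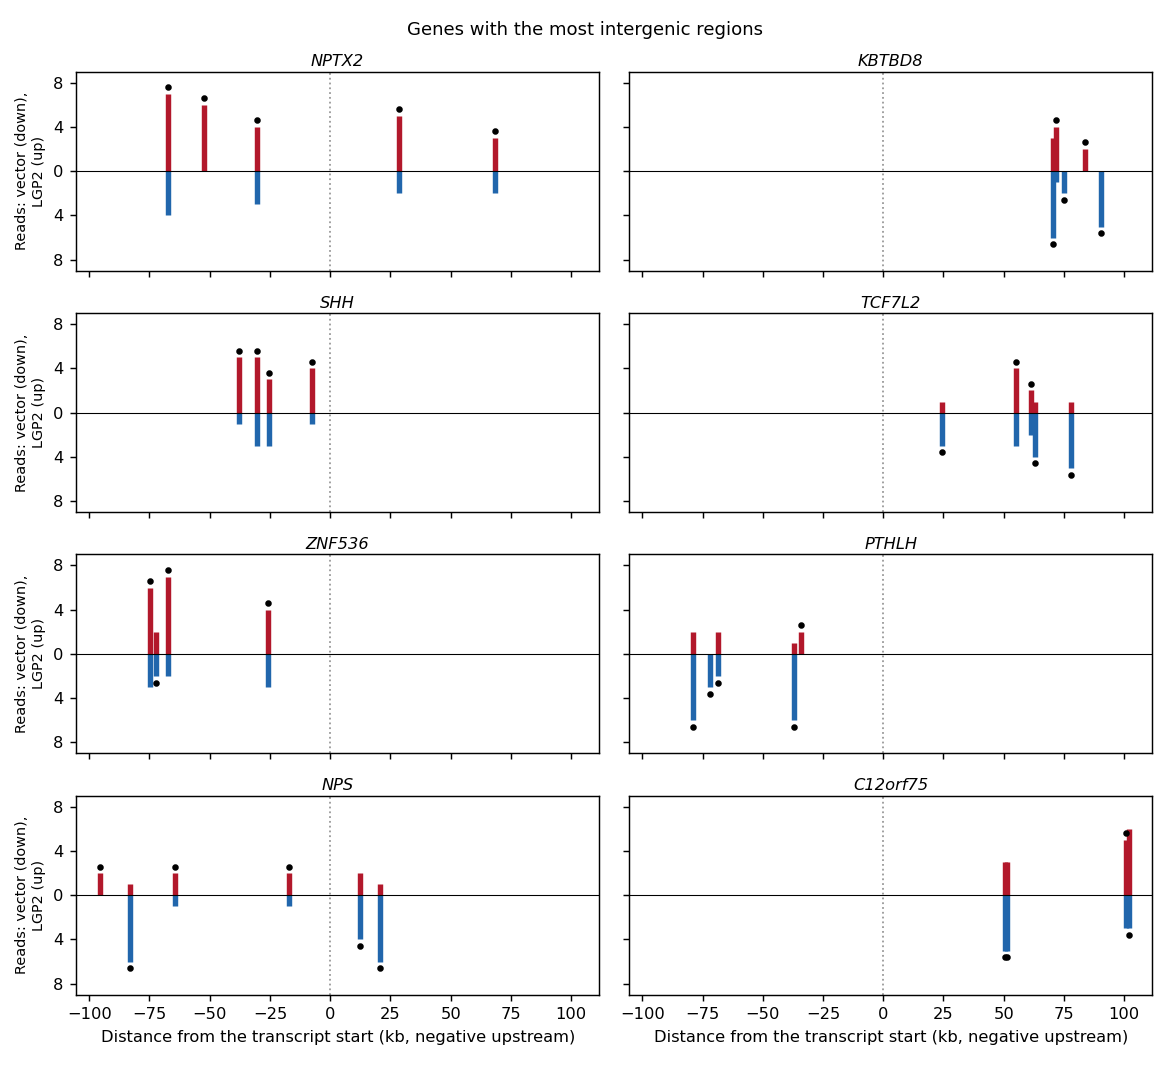
Reads per inferred 2 kb window at each member of the 8 genes with the most members, LGP2 reads drawn upward in red and vector reads downward in blue, against the distance from the start of the assigned transcript in kb, negative upstream. Black dots mark the library that called the region, and at NPTX2 and SHH every dot is on the LGP2 side.

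The members of the gene lists that follow are few and hold few reads each, and their counts stand beside those over all regions, of which 54.9% were called only with LGP2 and 44.9% only with the vector, 29.5% were at least 2-fold higher and 25.2% at least 2-fold lower. In the pathway of the RIG-I-like receptors, in which LGP2 acts, 5 of 29 listed genes had a member. IFIH1, which encodes the sensor MDA5, held 0 reads with LGP2 and 5 with the vector at 8.63 kb downstream. DDX3X, an RNA helicase, held 0 and 4, and TRAF6, a ubiquitin ligase of innate signalling, held 1 and 6. ADAR, the RNA editing enzyme, held 3 and 3 reads and TRAF2 held 2 and 2. The 3 vector calls were all at least 2-fold lower with LGP2 and the 2 LGP2 calls were near equal. The median log2 ratio was −1.66 over these 5 members against 0.15 over all regions. Each set was high in the library that had called it, and all members called only with the vector had a median of −1.19. At each of the 5 the intervals of the libraries overlapped. Interferon-stimulated genes had 2 members of 51 listed genes, at OASL with 1 and 4 reads and at IFNAR2, a subunit of the type I interferon receptor, with 3 and 2.

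Chemokine and cytokine genes had 10 members at 7 of 41 genes, with 3 LGP2 and 7 vector calls, and 2 of them were at least 2-fold higher and 4 at least 2-fold lower with LGP2, beside 29.5% and 25.2% of all regions. Of the 7 vector calls, 3 were at CCR4, as were 2 of the 4 lower members. The median log2 ratio was −0.86. Beside CCR4 and CXCL1, the growth factor CSF1 held 0 reads with LGP2 and 5 with the vector. CXCR1, a receptor for interleukin 8, held 4 and 1, CSF2 held 4 and 2, CCL2 held 1 and 3, and CXCL12 held 2 and 4. NF-kB pathway genes had 6 members at 4 of 28 genes, split 3 and 3 between the libraries. In it, the members of TAB1 held 5 and 3 and 4 and 3 reads, that of TAB3 held 0 and 3, and those of MAP3K7, the kinase TAK1, held 0 and 2 and 5 and 3.

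Of 20 enzymes and readers of crotonylation, CREBBP alone had a member, with 5 reads with LGP2 and 1 with the vector (log2 ratio 1.73), upstream of the transcript. CREBBP is an acetyltransferase that also adds crotonyl groups. Glioma driver genes had 5 members at 4 of 32 genes, 4 of them LGP2 calls. EGFR, the receptor often amplified in glioblastoma, had 2 upstream members with 7 and 3 and 3 and 2 reads, FGFR1 had one with 5 and 1, FGFR3 one with 3 and 3, and the chromatin remodeller ATRX one with 0 and 4. Genes of mesenchymal and astroglial states had 8 members at 7 of 35 genes, 7 of them vector calls, beside 44.9% vector calls among all regions. S100B, an astrocyte marker, held 0 reads with LGP2 and 5 with the vector, S100A4 held 1 and 5, LOX, a collagen cross-linking enzyme, held 2 and 5, and ANXA2 held 1 and 3, while THBS1, the thrombospondin 1 gene, held 4 and 1. Their median log2 ratio was −0.66, with 1 member at least 2-fold higher and 2 at least 2-fold lower, beside 29.5% and 25.2% of all regions. In RefSeq the region assigned to S100A4 lay between S100A3, 7512 bp away, and S100A2, 4029 bp away.

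Neural transcription factors had 14 members at 9 of 59 genes, with 8 LGP2 and 6 vector calls and a median of 0.13. Those with the largest ratios were TSHZ1 with 3 and 0 reads, SOX3 with 0 and 3 and SOX5 with 0 and 2 at each of 2 members. Another member of SOX3, called only with LGP2, held 3 and 2 reads. The SOX5 summits, at 23516708 and 23517858, lay less than 2 kb apart, so their windows overlapped and may count the same reads. Synaptic adhesion and axon guidance genes had the most members of any list, 23 at 15 of 56 genes. These were 11 LGP2 and 12 vector calls, with 8 at least 2-fold higher, 9 at least 2-fold lower and a median of −0.47. CNTN5 held 5 and 0 reads and LSAMP 0 and 5, while CNTN6 held 0 and 7 and 0 and 4 at 2 members 33.7 and 42.5 kb downstream. The LSAMP region lay 49.1 kb from its assigned transcript but 742769 bp from the RefSeq interval of LSAMP. CNTN5 and CNTN6 are contactins, adhesion molecules of neurons. Of the other contactins in the list, CNTN1 held 2 and 0, 1 and 6, and 1 and 3 reads, and CNTN3 held 5 and 3 and 1 and 4. The CNTN3 regions overlapped the RefSeq interval of that gene. Members of this family thus stood on both sides, and the intervals of the libraries overlapped at each of them.

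Growth factor and receptor genes had 14 members at 11 of 51 genes, split 7 and 7, with a median of 0.28. NTRK3, the receptor for neurotrophin 3, had 3 upstream members, all LGP2 calls, with 6 and 1, 6 and 7, and 9 and 3 reads. BMP3 held 3 and 0 reads, FGF5 held 1 and 6 and BMP6 held 0 and 2. Among AP-1 and immediate early genes, EGR2, a zinc finger transcription factor, had 2 upstream members, both vector calls, with 0 and 5 and 0 and 3 reads. From the RefSeq interval of EGR2 these regions lay 140002 and 135497 bp away. As references, 1 of 40 housekeeping genes had a member, ACTB with 1 and 7 reads. In RefSeq this region lay 45611 bp from ACTB and nearer to FSCN1, at 16271 bp. Genes of other tissues, which are not markers of glioblastoma cells, had 4 members at 4 of 40 genes, ALB with 0 and 3, TG with 7 and 2, TNNT2 with 1 and 5 and MYH7 with 2 and 1. Ratios of this size thus also stood at albumin and thyroglobulin, the products of liver and thyroid.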

How the data were processed

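ChIP-seq was performed in T98G cells, and the values came from 1 table with the 2 ChIP libraries. The input libraries were not analysed here, since no column held them. The authors deposited a normalized read density per library as a signal value, the set of calls, and the nearest transcript with its distance. Further columns hold the authors' own log2 ratio, mean level and p-value of the comparison, and they were not used. For the alignment, the calling of regions and the normalization, the tool was not given in the sources used here. A mouse build, mm10, stands in the labels, but the positions were human: the assigned transcript overlapped the RefSeq GRCh38.p14 gene of the same symbol for 99.6% of 2202 matched members.

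From the deposited densities, whole reads were recovered in 100% of regions (tolerance 0.001 on the log2 scale). The densities were those of the reads with 1 added, in an inferred window of 2 kb, moved along a straight line (intercept 0.105, slope 0.0452 per log2 unit of the mean level). The sequencing depth is unknown. The log2 ratio was computed from the densities, and 2-fold was the limit for higher and lower. Because the values are signal, no count model was run. Distances were measured from the summit to the assigned transcript.

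Shares carry exact Clopper-Pearson intervals and reads exact Poisson intervals, both at 95%. They cover counting error only, and reads without molecular identifiers need not be independent molecules. Named were the 10 members of largest log2 ratio toward each library, members called in both libraries, the 10 with the most reads, the 8 genes with the most members, up to 4 members per gene list, the 4 closest to a transcript and the 2 on either side of the limit of 100 kb. Further members of these genes and lists, the 4 promoter sequences and the member at SEM1 with intervals apart were named after their values were seen. The members and the 13 gene lists were chosen with earlier results of these data known. Of 504 listed symbols, 1 matched no single gene. The values of 1 listed gene are not reported here. Alternatives covered the limits, calls, scaling and reads added. The scripts were tested on simulated data. Python 3.11.15, pandas 2.3.3, NumPy 2.4.6, SciPy 1.17.1 and matplotlib 3.10.9 were used.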

Additional observations from a re-analysis of the deposited data

How the results depend on the processing

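Of 52 alternatives over 9 results, 39 kept the direction and, for counts, stayed within 1.5 times the reported value. Among them were limits of 50 and 200 kb, distance from the nearest edge of the region and 1 member per gene. Leaving out chromosome 20 or members overlapping a RefSeq gene was also among them. At 50 kb there were 267 in place of 369 genes of 2 or more members. Scaling decided the balance of ratios. In place of 689 higher and 526 lower members, there were 688 and 690 with reads as counted, 552 and 648 with the median of all regions set to 0, and 881 and 391 when scaled by the reads at regions of the other library. With reads as counted, 49.9% of members past 2-fold were higher with LGP2 and the median log2 ratio was 0.00. With the median of all regions set to 0, 46.0% were higher and the median was 0.00. Scaled by the reads at regions of the other library, 69.3% were higher and the median was 0.48. With 5 reads added to each library, 67 members were higher and 30 lower (69.1% higher), in place of 689 and 526, since the added reads shrink ratios of low counts. Among members with at least 5 reads over both libraries, 338 were higher and 311 lower (52.1% higher). With at least 5 reads in the calling library, LGP2 calls were 50.7% of the members called in 1 library, in place of 56.5%. A median of 5 reads per window over both libraries limits every single member. No paired analysis was possible because each group had 1 library.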
